A study of Mus musculus with 14 samples.

Results

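The 42 genes described here encode the machinery that builds peroxisomes and the enzymes that work inside them. They were chosen, with earlier results of these data known, as a list of mouse symbols and matched to Ensembl identifiers of the count files. All 42 were found among 47729 genes. They fall into 13 peroxins (proteins that assemble the organelle and import its contents), 24 matrix enzymes and 5 genes listed as peroxisomal membrane proteins. The last class includes Abcd4, known as a lysosomal cobalamin transporter. The data are RNA counts from 14 libraries of mouse kidney tissue.

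Kidneys came from 2 genotypes in 2 states. The SMOC2 UUO group (4 libraries) holds Smoc2 transgenic kidneys taken after 7 days of unilateral ureteral obstruction (UUO, in which a single ureter is tied off and the kidney above it scars). The WT UUO group (4 libraries) holds wild-type kidneys after the same operation. The SMOC2 normal group (3 libraries) and the WT normal group (3 libraries) are untreated kidneys of each genotype. The labels name neither the promoter of the transgene nor the age of the mice, and they do not say that each library is a separate animal, so p-values measure the spread between libraries, which may be technical. The treatment protocol in the labels speaks instead of a folic acid injection in Balb/c males, so the groups here rest on the titles and on the genotype and treatment fields.

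Peroxisomes shorten very long and branched fatty acids, degrade D-amino acids and hydroxy acids, and destroy the hydrogen peroxide that these reactions release. Proximal tubule cells of the kidney are rich in them. Matrix enzymes are made in the cytosol and carried through the peroxisomal membrane by import receptors, which dock, release their cargo and are then ubiquitinated and recycled. Many of the enzymes of fatty acid breakdown are known targets of the nuclear receptor PPARA in rodents.

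Library totals ran from 19483994 to 30033405 counts, of which the 42 genes took 85386 to 293652. Levels are given in CPM, counts relative to the library size after scaling by trimmed mean of M-values factors. Those factors were 1.133 to 1.196 in UUO libraries and 0.8008 to 0.8553 in normal libraries. Smoc2 itself had 124, 89.9, 83.9 and 87.1 CPM in SMOC2 UUO libraries, against 150.4, 131, 158 and 148 CPM in WT UUO libraries. In untreated kidneys it had 27.8, 26.9 and 10.6 CPM in SMOC2 normal libraries, against 12.6, 19.7 and 43.3 CPM in WT normal libraries. Smoc2 counts thus showed no excess in libraries labelled SMOC2, and every genotype named below is that of the label. A gene is said to have risen or fallen only at a Benjamini-Hochberg adjusted p under 0.05 in edgeR's quasi-likelihood test, adjusted over 17926 genes, and every log2 change is that test's fitted value.

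Almost the entire set was lower after obstruction. In SMOC2 kidneys, 41 of the 42 genes (97.6%) fell and 1 rose after UUO, although the sign of 3 peroxins turned with library totals in place of scaling factors. Of all 17926 genes tested there, 30.4% fell and 32.5% rose, 62.8% in either direction. In WT kidneys 41 genes fell and 1 rose, with the sign of 2 peroxins turning in the same way. Of all genes tested there, 29.8% fell and 31.3% rose, 61.1% in either direction. All 42 genes had passed the count filter. UUO and normal libraries did not overlap for 41 of the 42 genes (97.6%) in each genotype. Of all genes tested, 62.7% did not overlap in SMOC2 and 60.8% in WT kidneys. The gene that rose was Abcd2 in both genotypes. The median log2 change of the set was -1.11 in SMOC2 and -1.06 in WT kidneys, beside medians over all genes of 0.04 and 0.05. In a bulk tissue, fewer cells of a type and less RNA per cell cannot be told apart.

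The matrix enzymes had the larger changes. All 24 fell in each genotype, with a median log2 change of -1.50 in SMOC2 and -1.53 in WT kidneys. All 13 peroxins fell too, with medians of -0.90 and -0.75, but with library totals in place of scaling factors the change was positive for Pex2 and Pex26 in both genotypes and for Pex11g in SMOC2 kidneys, and 10 peroxins in SMOC2 and 8 in WT kidneys were still called lower. Library totals shifted the median log2 change of all genes to 0.54 in SMOC2 and 0.52 in WT kidneys. No matrix enzyme changed sign under them, but the sizes of the enzyme falls depend on the scaling too. This weighs most on shallow falls such as that of Eci2 (-0.67 in SMOC2 and -0.51 in WT kidneys). With scaling factors, a fall of at least 2-fold was seen for 18 matrix enzymes in SMOC2 and 16 in WT kidneys. It was at least 4-fold for 9 and 7. Among the peroxins, 4 and 3 fell at least 2-fold and 0 fell at least 4-fold in either genotype. In SMOC2 kidneys 12 of 24 matrix enzymes (50%) fell further than the steepest peroxin, Pex7. In WT kidneys 14 of 24 (58.3%) fell further than the steepest peroxin, Pex11a. The classes were not separate, since 6 matrix enzymes in SMOC2 and 2 in WT kidneys fell by less than the median peroxin. These are descriptions of the listed genes, and no test was run between the classes.

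**Figure D1:**
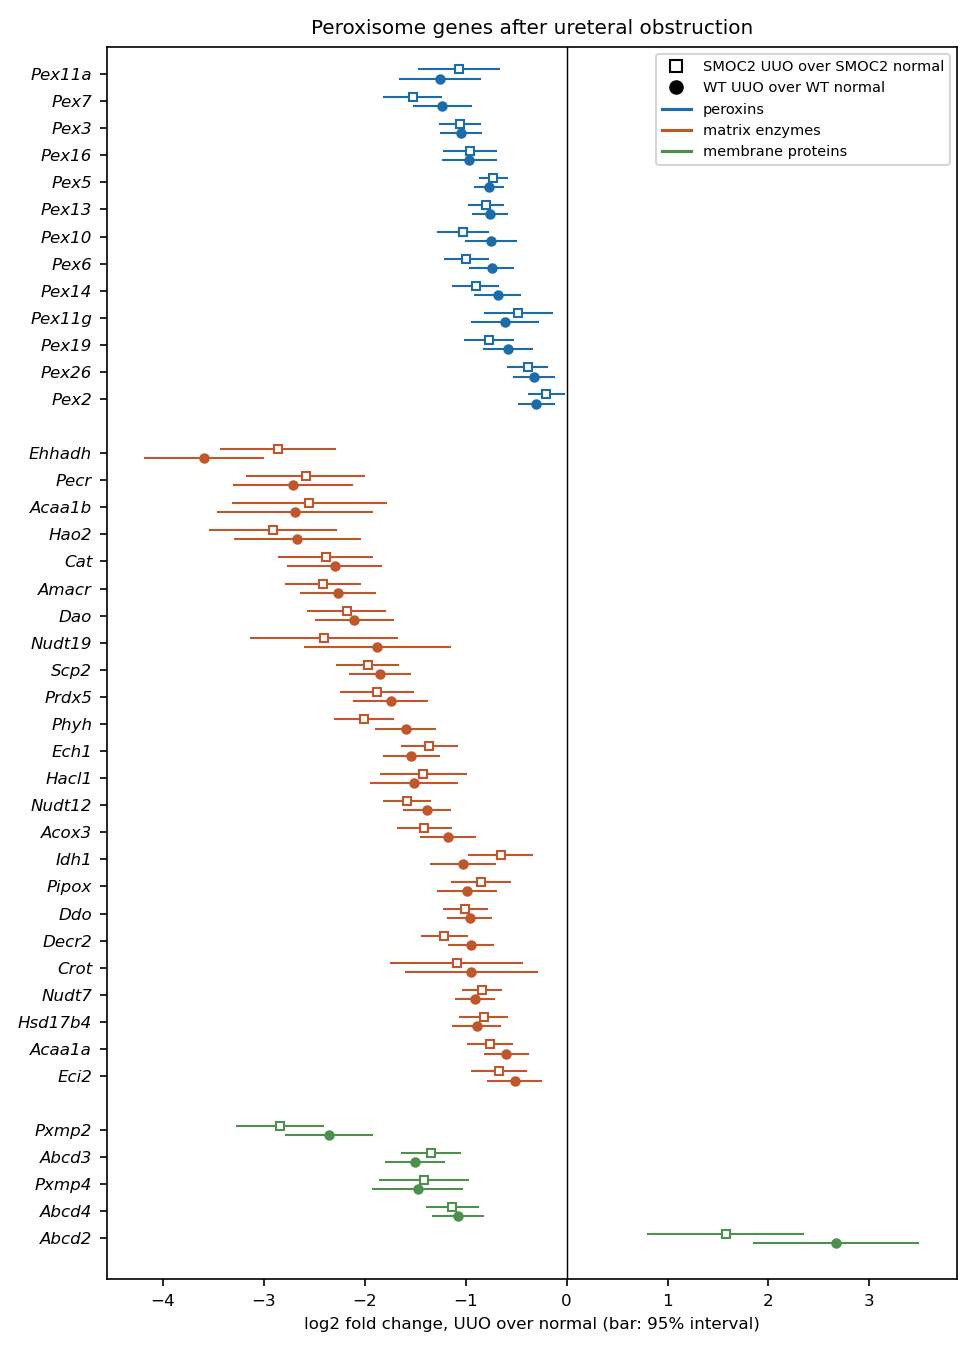
Fitted log2 fold change of UUO over normal kidney for the 42 genes (points) with 95% intervals (bars), SMOC2 kidneys as open squares and WT kidneys as filled circles, grouped by class and ordered by the WT change. The 41 falling genes lie left of 0 and Abcd2 right of it. The peroxins reach -1.52 and the matrix enzymes -3.59. With library totals in place of scaling factors, Pex2, Pex26 and (in SMOC2 kidneys) Pex11g lie right of 0.

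A similar contrast can be read from summed levels in each library, which weigh the abundant genes most. In WT normal library 2, Hao2 (2144 CPM), Prdx5 (1872 CPM) and Ehhadh (1188 CPM) were part of an enzyme sum of 11807 CPM. The 13 peroxins summed to 413 to 467 CPM in SMOC2 UUO libraries, against 755 to 815 CPM in SMOC2 normal libraries. They summed to 412 to 441 CPM in WT UUO libraries, against 696 to 791 CPM in WT normal libraries. The 24 matrix enzymes summed to 2563 to 3280 CPM in SMOC2 UUO libraries, against 10504 to 11100 CPM in SMOC2 normal libraries. The UUO sums lay below the normal sums without overlap in both classes, and the gap was wider for the enzymes. In WT kidneys the enzymes summed to 2387 to 3587 CPM after UUO, against 9972 to 11807 CPM in normal libraries. The ratio of summed enzymes to summed peroxins was 5.56 to 8.15 in the 8 UUO libraries, against 12.9 to 14.9 in the 6 normal libraries.

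Markers of the proximal tubule fell further than either class. Their summed level was 2263 to 3156 CPM in SMOC2 UUO libraries, against 18735 to 23030 CPM in SMOC2 normal libraries, and all 10 fell. It was 1261 to 3469 CPM in WT UUO libraries, against 15943 to 19762 CPM in WT normal libraries, and all 10 fell there too. Their median log2 change was -2.97 in SMOC2 and -3.12 in WT kidneys. WT UUO libraries 1 and 3 stood lowest, at 1261 and 1323 CPM, and they also held the lowest matrix enzyme sums of the WT UUO group, 2551 and 2387 CPM, whereas libraries 2 and 4 had 2786 and 3469 CPM of tubule markers and 3411 and 3587 CPM of matrix enzymes. The ratio of summed matrix enzymes to summed tubule markers was 1.03 to 2.02 in UUO libraries, against 0.482 to 0.741 in normal libraries. Without WT UUO libraries 1 and 3, 41 of the 42 genes were called in WT kidneys, Crot being the one lost. Of all genes tested in that setting, 9085 of 18120 were called. The part of the tubule markers in the falls was not tested.

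Other cell types moved as well. Loop of Henle and distal tubule markers (5 of 5) and collecting duct markers (4 of 4) fell in both genotypes. Myofibroblast markers rose (5 of 5 in both genotypes), as did macrophage markers (5 of 6 in SMOC2 and 6 of 6 in WT kidneys). The macrophage sum was 1211 to 1974 CPM in SMOC2 UUO libraries, against 208 to 257 CPM in SMOC2 normal libraries, and 1554 to 1849 CPM in WT UUO libraries, against 202 to 228 CPM in WT normal libraries. Of the 4 endothelial markers, 1 rose and 1 fell in SMOC2 kidneys, and 1 fell in WT kidneys. Hepatocyte markers, checked because liver is rich in peroxisomes, summed to 0.495 to 1.54 CPM in UUO libraries, against 9.16 to 78.3 CPM in normal libraries, with the highest value coming from Ttr at 71.1 CPM in SMOC2 normal library 3. Adipocyte markers summed to at most 2.87 CPM in any library. No marker was at 0 in all 14 libraries. The part of these cell types in the falls was not tested.

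**Figure D2:**
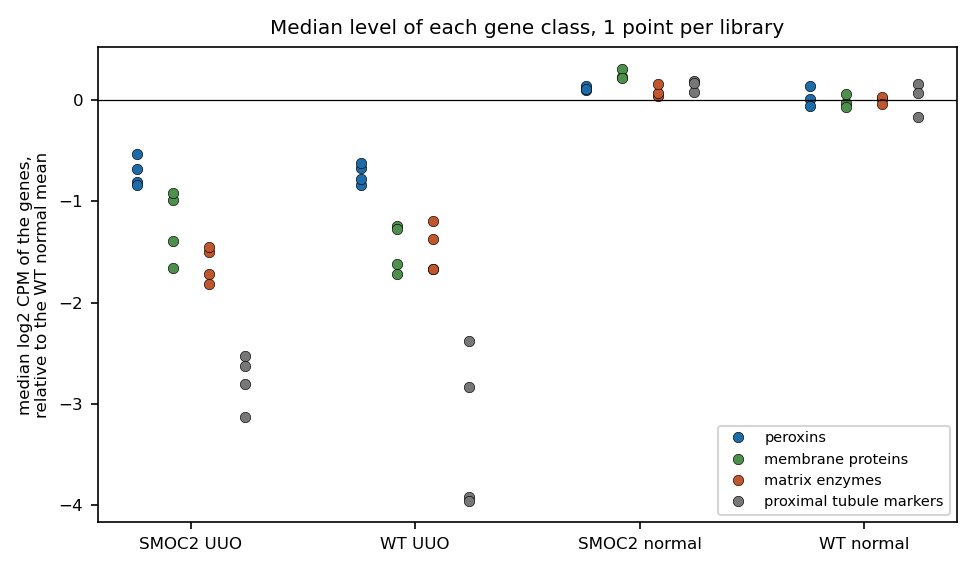
Median over the genes of each class of log2 CPM minus that gene's mean in WT normal libraries (vertical axis), 1 point per library, for SMOC2 UUO, WT UUO, SMOC2 normal and WT normal kidneys. UUO libraries lie between -0.54 and -0.84 for peroxins, between -1.19 and -1.82 for matrix enzymes and between -2.38 and -3.96 for the proximal tubule markers, and normal libraries lie near 0.

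Promoters were set beside these changes to show what the classes share that the choice of genes did not use. RefSeq promoters (build GRCm38.p6, 250 bases before to 50 bases after the start) were at hand for 34 of the 42 genes. The ratio of observed to expected CpG pairs, which is high in the promoters of most broadly expressed genes, had a median of 0.526 over 21 matrix enzymes and 0.840 over 11 peroxins, against 0.390 over all 27025 genes. A ratio under 0.6 was held by 57.1% of the matrix enzymes and 18.2% of the peroxins, against 64.5% of all genes. Those 27025 genes were not limited to genes that passed the count filter, as all 42 members did. Shares among tested genes alone were not computed. Across the 34 genes the ratio and the log2 change had a Spearman correlation of 0.18 in SMOC2 and 0.21 in WT kidneys, a weak relation across genes that are not independent. Within the 21 matrix enzymes it was 0.15 in SMOC2 and 0.09 in WT kidneys, and within the 11 peroxins it had the opposite sign, -0.53 in SMOC2 and -0.13 in WT kidneys. The sequences show both ends of this scale: of the genes given library by library below that have 1 promoter each, the lowest and the highest ratio in each class, a rule set after the values were seen. Each CG pair is in capitals.
Hao2 (chr3:98893181-98893480, minus strand), lowest of 6 matrix enzymes with 2 CG pairs and a ratio of 0.260: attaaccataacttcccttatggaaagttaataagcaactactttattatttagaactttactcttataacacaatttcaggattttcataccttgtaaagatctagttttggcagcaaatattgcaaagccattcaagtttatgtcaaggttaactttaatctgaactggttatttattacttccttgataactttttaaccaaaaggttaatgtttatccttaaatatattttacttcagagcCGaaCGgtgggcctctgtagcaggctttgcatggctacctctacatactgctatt
Pecr (chr1:72284272-72284571, minus strand), highest of 6 matrix enzymes with 21 CG pairs and a ratio of 0.826: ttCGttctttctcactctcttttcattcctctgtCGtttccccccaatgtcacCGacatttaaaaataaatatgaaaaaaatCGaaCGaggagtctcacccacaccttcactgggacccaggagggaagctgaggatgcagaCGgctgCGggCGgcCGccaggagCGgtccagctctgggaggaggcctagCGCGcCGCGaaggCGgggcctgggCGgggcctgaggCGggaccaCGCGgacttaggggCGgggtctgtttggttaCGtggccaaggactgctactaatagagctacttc
Pex11a (chr7:79743082-79743381, minus strand), lowest of 3 peroxins with 13 CG pairs and a ratio of 0.527: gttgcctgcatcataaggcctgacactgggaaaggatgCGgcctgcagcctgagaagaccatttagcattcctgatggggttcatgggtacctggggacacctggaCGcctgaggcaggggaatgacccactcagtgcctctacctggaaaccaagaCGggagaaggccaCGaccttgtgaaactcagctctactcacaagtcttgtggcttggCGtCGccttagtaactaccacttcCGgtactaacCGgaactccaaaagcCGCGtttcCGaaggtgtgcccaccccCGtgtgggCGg
Pex7 (chr10:19907625-19907924, minus strand), highest of 3 peroxins with 14 CG pairs and a ratio of 0.965: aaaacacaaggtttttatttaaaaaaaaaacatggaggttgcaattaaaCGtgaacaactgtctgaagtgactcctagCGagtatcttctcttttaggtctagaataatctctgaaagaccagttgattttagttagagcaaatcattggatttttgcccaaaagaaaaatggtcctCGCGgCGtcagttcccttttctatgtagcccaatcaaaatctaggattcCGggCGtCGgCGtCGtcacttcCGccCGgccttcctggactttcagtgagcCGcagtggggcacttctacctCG

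A direct repeat of 2 copies of AGGTCA with 1 base between them (DR1, the kind of element bound by PPARA with its RXR partner), with at most 2 mismatches on either strand, was found for 1 of the 34 genes, Cat, against 4.4% of all 27025 genes, with every promoter of a gene searched. Its first base lies 204 bases before the start and it has 2 mismatches. A match is a run of letters and not a measured binding site. The Cat promoter is shown with the DR1 match in capitals.
Cat (chr2:103485104-103485403, minus strand): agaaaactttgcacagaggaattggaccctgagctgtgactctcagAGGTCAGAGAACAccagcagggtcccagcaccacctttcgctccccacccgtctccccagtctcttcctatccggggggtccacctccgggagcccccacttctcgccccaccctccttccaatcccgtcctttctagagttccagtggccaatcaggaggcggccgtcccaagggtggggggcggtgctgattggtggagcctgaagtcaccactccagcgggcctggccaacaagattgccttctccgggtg

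**Figure D3:**
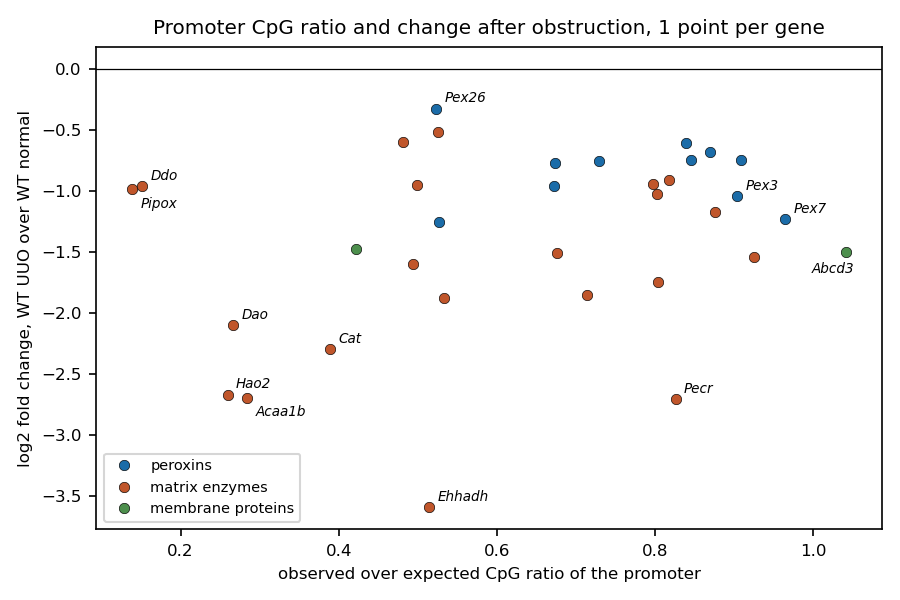
Observed over expected CpG ratio of the promoter (horizontal axis; the mean where a gene has several promoters) against the log2 change in WT kidneys (vertical axis), 1 point per gene for 34 genes, coloured by class. Peroxins lie mostly above a ratio of 0.6 and above a log2 change of -1.3. Matrix enzymes spread over most of both axes, with Pecr at a ratio of 0.826 and a change of -2.71, and Hao2 at 0.260 and -2.67.

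Per kilobase of exon, the normal WT kidney held Hao2 at 913 ± 145 CPM per kilobase (SD, n = 3), Prdx5 at 753 ± 106 CPM per kilobase, Cat at 449 ± 25.5 CPM per kilobase and Ehhadh at 324 ± 72.1 CPM per kilobase as its most abundant members. In WT UUO libraries (n = 4) the order was Prdx5 at 225 ± 52.3 CPM per kilobase, Hao2 at 144 ± 68.9 CPM per kilobase, Idh1 at 119 ± 16.8 CPM per kilobase and Cat at 91.1 ± 24.8 CPM per kilobase. The ranges of mean ± SD of Hao2 and Prdx5 overlapped in each state of WT kidney. In SMOC2 normal libraries Prdx5 already stood above Hao2, at 820 ± 122 against 804 ± 70.6 CPM per kilobase (SD). In SMOC2 UUO libraries Prdx5 stood at 223 ± 11.7 and Hao2 at 107 ± 6.98 CPM per kilobase. Ehhadh and Pecr, at ranks 4 and 5 in WT normal libraries, stood at ranks 13 and 9 in WT UUO libraries. The median gene of the matrix class stood at 28.4 CPM per kilobase in WT UUO libraries, against 85.9 in WT normal libraries. The median peroxin stood at 6.596 CPM per kilobase in WT UUO libraries, against 11.2 in WT normal libraries.

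Peroxins that place proteins in the peroxisomal membrane fell by moderate amounts. Pex3 (chr10:13523842-13553142, minus strand), the membrane anchor for the carrier of new membrane proteins, had 18.9, 18.7, 20.3 and 21.6 CPM in SMOC2 UUO libraries, against 43.4, 40.7 and 40.3 CPM in SMOC2 normal libraries (log2 change -1.06 ± 0.09 (SE), adjusted p = 3.11e-07). In WT kidneys it had 22.6, 23.5, 20.8 and 23.9 CPM in WT UUO libraries, against 47.3, 52.7 and 40.5 CPM in WT normal libraries (log2 change -1.04 ± 0.09 (SE), adjusted p = 3.83e-07). Every UUO library lay below every normal library. Pex16 (chr2:92374676-92381217, plus strand), which helps to bring Pex3 to the membrane, had 24.6, 22.8, 29.7 and 26.9 CPM in SMOC2 UUO libraries, against 51.8, 50.2 and 49.99 CPM in SMOC2 normal libraries (log2 change -0.96 ± 0.12 (SE), adjusted p = 9.07e-06). It had 23.7, 24.6, 26.7 and 23.6 CPM in WT UUO libraries, against 39.7, 59.2 and 45.3 CPM in WT normal libraries (log2 change -0.96 ± 0.12 (SE), adjusted p = 9.59e-06). The groups were separate here as well, although WT normal libraries spread widely. Pex19, the cytosolic carrier, fell by less, with log2 changes of -0.77 in SMOC2 and -0.58 in WT kidneys.

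The import receptors differed in size of change. Pex7 (chr10:19853900-19907689, minus strand), the receptor for enzymes with an amino-terminal targeting signal, had 18.9, 22.4, 23.1 and 24.7 CPM in SMOC2 UUO libraries, against 72.4, 55.5 and 64.5 CPM in SMOC2 normal libraries (log2 change -1.52 ± 0.13 (SE), adjusted p = 3.04e-07). It had 22.8, 26.1, 22.7 and 30.9 CPM in WT UUO libraries, against 63.1, 65.7 and 51.6 CPM in WT normal libraries (log2 change -1.23 ± 0.13 (SE), adjusted p = 2.29e-06). All UUO libraries lay below all normal libraries. Pex5, the receptor for the more common carboxy-terminal signal, fell by less, with log2 changes of -0.73 in SMOC2 and -0.77 in WT kidneys. The docking proteins Pex13 (log2 change -0.79 in SMOC2 and -0.76 in WT kidneys) and Pex14 (-0.90 in SMOC2 and -0.68 in WT kidneys) were close to it. The RING ubiquitin ligase subunits parted: Pex10 changed by -1.03 in SMOC2 and -0.75 in WT kidneys, and Pex2 by -0.20 in SMOC2 and -0.30 in WT kidneys, the smallest fall of the set. In SMOC2 kidneys the Pex2 groups overlapped and its adjusted p was 0.0427. That call was lost under upper-quartile scaling, without a count filter, with only the groups compared and on leaving out any of 10 single libraries. With library totals Pex2 was called higher instead in SMOC2 kidneys (log2 change 0.30, adjusted p = 0.00324, edgeR). Of the recycling pair, the ATPase Pex6 changed by -0.99 in SMOC2 and -0.74 in WT kidneys and its membrane anchor Pex26 by -0.38 in SMOC2 and -0.32 in WT kidneys.

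Of the factors that elongate and divide peroxisomes, Pex11a (chr7:79735957-79743131, minus strand), a PPARA-responsive gene in rodents, had 24.9, 30.4, 40.8 and 44.7 CPM in SMOC2 UUO libraries, against 69.6, 74.4 and 76.4 CPM in SMOC2 normal libraries (log2 change -1.06 ± 0.18 (SE), adjusted p = 0.000179). It had 26.1, 33.8, 23.3 and 34.5 CPM in WT UUO libraries, against 73.4, 77.8 and 59.4 CPM in WT normal libraries (log2 change -1.25 ± 0.19 (SE), adjusted p = 4.47e-05). The UUO libraries spread from 23.3 to 44.7 CPM, all below the normal libraries. Pex11g had log2 changes of -0.48 in SMOC2 and -0.61 in WT kidneys. Because 41.1% of its exon bases are shared with a gene on the opposite strand and the strand setting of the counting is not given in the sources used here, its value is uncertain.

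The core of peroxisomal beta-oxidation held the steepest fall of the set in WT kidneys, whereas in SMOC2 kidneys that was Hao2. Ehhadh (chr16:21761287-21787807, minus strand), the bifunctional enzyme that hydrates and then oxidises the acyl chain, had 80.3, 103, 109 and 139.8 CPM in SMOC2 UUO libraries, against 771, 778 and 807 CPM in SMOC2 normal libraries (log2 change -2.86 ± 0.26 (SE), adjusted p = 4.97e-07). It had 52.6, 87.2, 59.0 and 122 CPM in WT UUO libraries, against 953, 1188 and 758 CPM in WT normal libraries (log2 change -3.59 ± 0.27 (SE), adjusted p = 1.06e-07). No UUO library came near a normal one. The thiolase Acaa1b (chr9:119148023-119157093, minus strand), which cleaves off the acetyl unit, had 19.6, 31.2, 52.6 and 37.1 CPM in SMOC2 UUO libraries, against 161, 167 and 289 CPM in SMOC2 normal libraries (log2 change -2.55 ± 0.35 (SE), adjusted p = 2.23e-05). It had 13.4, 25.2, 17.9 and 39.9 CPM in WT UUO libraries, against 151, 158 and 158 CPM in WT normal libraries (log2 change -2.69 ± 0.36 (SE), adjusted p = 1.59e-05). UUO libraries were below normal ones throughout, and SMOC2 normal library 4 stood highest. The near-identical thiolase Acaa1a fell far less, by log2 changes of -0.76 in SMOC2 and -0.60 in WT kidneys, and reads of the pair can be split between them, so both values are uncertain. Scp2, a thiolase and sterol carrier, changed by -1.97 in SMOC2 and -1.85 in WT kidneys. The acyl-CoA oxidase Acox3 changed by -1.41 in SMOC2 and -1.17 in WT kidneys. Hsd17b4, the other bifunctional enzyme, used for branched chains and bile acid precursors, changed by -0.82 in SMOC2 and -0.89 in WT kidneys.

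**Figure D4:**
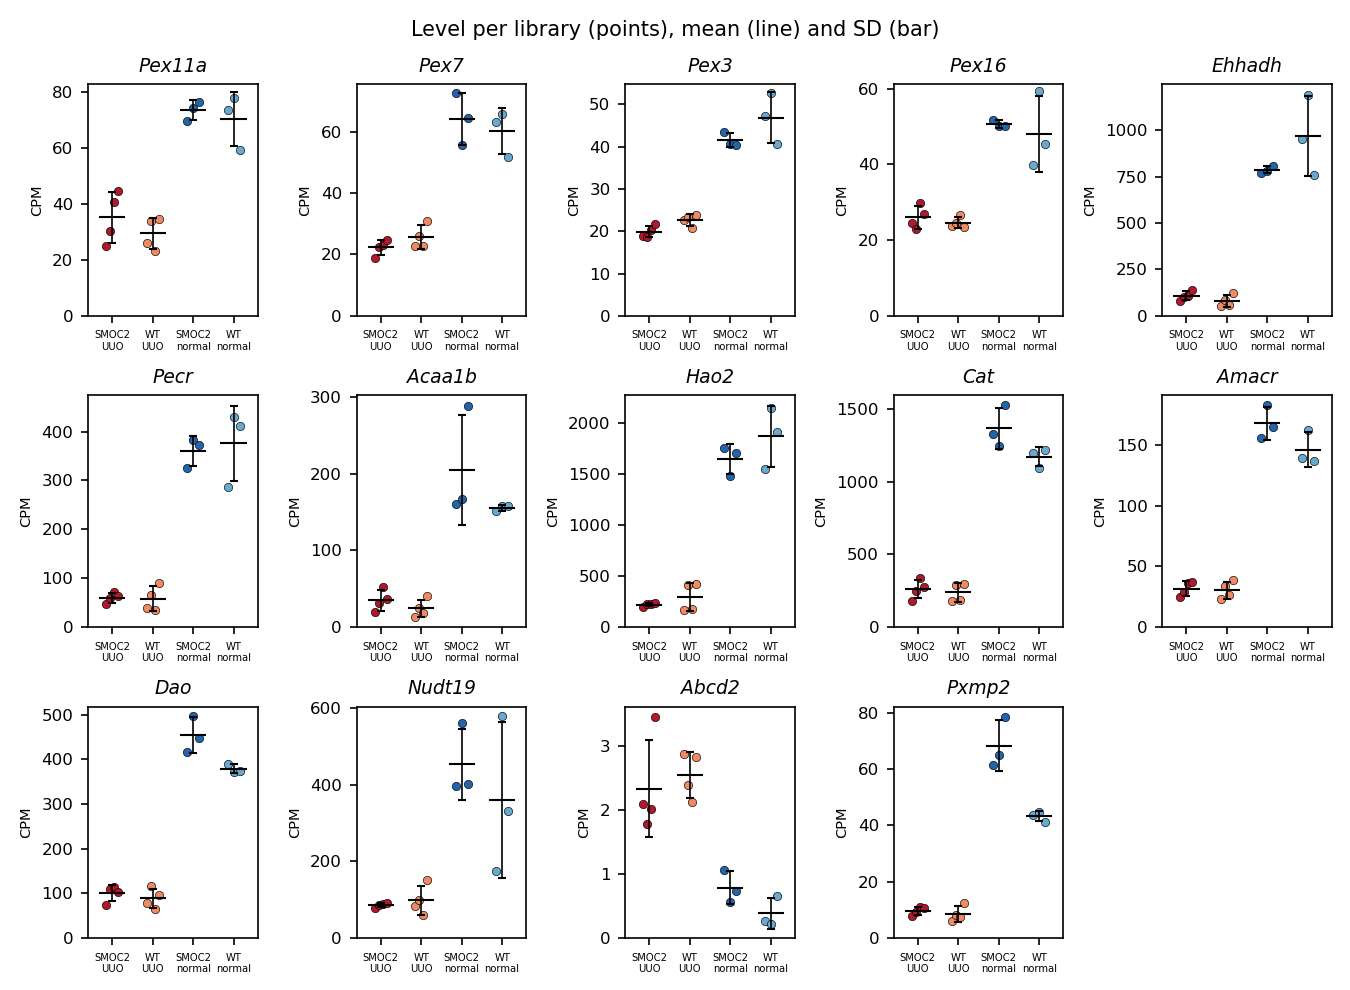
Level in CPM (vertical axes, linear, from 0) of the 14 genes given library by library, in SMOC2 UUO, WT UUO, SMOC2 normal and WT normal kidneys. Points are libraries, lines are means and bars are SD (n = 4, 4, 3 and 3). In every panel but that of Abcd2 the UUO libraries lie below the normal libraries of the same genotype.

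Auxiliary enzymes of the pathway showed the same split between steep and shallow falls. Pecr (chr1:72259167-72284314, minus strand), a reductase of unsaturated acyl chains, had 46.7, 59.2, 71.1 and 63.8 CPM in SMOC2 UUO libraries, against 326, 383 and 374 CPM in SMOC2 normal libraries (log2 change -2.58 ± 0.27 (SE), adjusted p = 1.62e-06). It had 39.6, 64.8, 35.6 and 90.2 CPM in WT UUO libraries, against 288, 429.6 and 411 CPM in WT normal libraries (log2 change -2.71 ± 0.27 (SE), adjusted p = 1.22e-06). Within WT UUO, libraries 1 and 3 were lowest, the same libraries as for the tubule markers. Amacr (chr15:10981756-10996626, plus strand), the racemase that lets branched chains enter beta-oxidation, had 24.8, 28.5, 36.4 and 36.6 CPM in SMOC2 UUO libraries, against 156, 183 and 165 CPM in SMOC2 normal libraries (log2 change -2.41 ± 0.17 (SE), adjusted p = 5.45e-08). It had 22.8, 33.7, 26.7 and 38.4 CPM in WT UUO libraries, against 139, 163 and 137 CPM in WT normal libraries (log2 change -2.27 ± 0.17 (SE), adjusted p = 1.02e-07). All UUO libraries were below all normal ones. The isomerase Ech1 changed by -1.36 in SMOC2 and -1.54 in WT kidneys, the reductase Decr2 by -1.21 in SMOC2 and -0.95 in WT kidneys and the isomerase Eci2 by -0.67 in SMOC2 and -0.51 in WT kidneys. Crot, which exports shortened chains as carnitine esters, had 187, 236, 104 and 202 CPM in WT UUO libraries, against 263, 561.9 and 228 CPM in WT normal libraries (log2 change -0.94 ± 0.30 (SE), adjusted p = 0.0147). Of the set, Crot alone had WT groups that overlapped, while 60.8% of all genes tested had groups that did not. Its change in SMOC2 kidneys was -1.09. Without WT normal library 2 its WT log2 change was -0.43 with an adjusted p of 0.176. In alpha-oxidation, which removes a single carbon from phytanic acid, the hydroxylase Phyh changed by -2.01 in SMOC2 and -1.60 in WT kidneys and the lyase Hacl1 by -1.42 in SMOC2 and -1.51 in WT kidneys.

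Among the oxidases that make hydrogen peroxide, Hao2 (chr3:98874521-98893239, minus strand), the hydroxy acid oxidase of rodent kidney, had 200, 225, 220.4 and 234 CPM in SMOC2 UUO libraries, against 1752, 1483 and 1708 CPM in SMOC2 normal libraries (log2 change -2.91 ± 0.29 (SE), adjusted p = 1.02e-06). It had 166, 415, 178 and 418 CPM in WT UUO libraries, against 1553, 2144 and 1915 CPM in WT normal libraries (log2 change -2.67 ± 0.29 (SE), adjusted p = 2.35e-06). WT UUO libraries 1 and 3 were again well below libraries 2 and 4, yet all were far below normal. Dao (chr5:114003703-114025682, plus strand), D-amino acid oxidase, had 74.2, 109.8, 114 and 102 CPM in SMOC2 UUO libraries, against 418, 497 and 448 CPM in SMOC2 normal libraries (log2 change -2.18 ± 0.18 (SE), adjusted p = 1.73e-07). It had 78.6, 116, 64.1 and 95.1 CPM in WT UUO libraries, against 391, 373 and 374 CPM in WT normal libraries (log2 change -2.10 ± 0.18 (SE), adjusted p = 2.67e-07). The groups did not overlap. Ddo, which oxidises D-aspartate, changed by -1.003 in SMOC2 and -0.96 in WT kidneys, and Pipox, which oxidises pipecolic acid and sarcosine, by -0.85 in SMOC2 and -0.99 in WT kidneys.

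Cat (chr2:103453849-103485160, minus strand), catalase, which breaks down the peroxide, had 182, 250.4, 336 and 277 CPM in SMOC2 UUO libraries, against 1329, 1245 and 1526 CPM in SMOC2 normal libraries (log2 change -2.39 ± 0.21 (SE), adjusted p = 3.79e-07). It had 178, 291, 186 and 297 CPM in WT UUO libraries, against 1199, 1096 and 1221 CPM in WT normal libraries (log2 change -2.30 ± 0.21 (SE), adjusted p = 6.01e-07). The highest UUO library was below the lowest normal library by a wide margin in each genotype. The peroxiredoxin Prdx5, which also works in mitochondria and the cytosol, changed by -1.88 in SMOC2 and -1.74 in WT kidneys. Of the nudix hydrolases, which trim coenzyme A and nucleotide cofactors, Nudt19 (chr7:35547185-35556304, minus strand) had 77.6, 84.9, 89.8 and 89.9 CPM in SMOC2 UUO libraries, against 396, 561 and 403 CPM in SMOC2 normal libraries (log2 change -2.40 ± 0.34 (SE), adjusted p = 2.61e-05). It had 83.2, 98.3, 60.8 and 151 CPM in WT UUO libraries, against 174, 578 and 330.5 CPM in WT normal libraries (log2 change -1.88 ± 0.33 (SE), adjusted p = 0.000231). WT normal libraries spread more than 3-fold, and their lowest, 174 CPM in library 1, lay just above the highest WT UUO library. On the opposite strand other genes share 35% of the exon bases of Nudt19, 28.3% of Pex14, 19.1% of Prdx5, 11.5% of Pecr, 11.4% of Acaa1b and 10.8% of Pxmp2, so these values carry the same uncertainty as Pex11g. Nudt12 changed by -1.58 in SMOC2 and -1.38 in WT kidneys and Nudt7 by -0.84 in SMOC2 and -0.91 in WT kidneys. Idh1, an NADPH source shared with the cytosol, changed by -0.65 in SMOC2 and -1.03 in WT kidneys.

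In the membrane, Pxmp2 (chr5:110274282-110286186, minus strand), a channel for small solutes, had 7.62, 9.15, 10.8 and 10.6 CPM in SMOC2 UUO libraries, against 61.5, 64.9 and 78.6 CPM in SMOC2 normal libraries (log2 change -2.84 ± 0.20 (SE), adjusted p = 4.68e-08). It had 5.89, 8.11, 7.50 and 12.5 CPM in WT UUO libraries, against 43.7, 44.9 and 41.2 CPM in WT normal libraries (log2 change -2.35 ± 0.20 (SE), adjusted p = 2.38e-07). UUO and normal libraries were far apart. Abcd2 (chr15:91145871-91191799, minus strand), an importer of very long-chain fatty acyl-CoA, went the other way, with 2.08, 1.78, 2.02 and 3.45 CPM in SMOC2 UUO libraries, against 1.06, 0.555 and 0.729 CPM in SMOC2 normal libraries (log2 change 1.58 ± 0.36 (SE), adjusted p = 0.00152). It had 2.87, 2.39, 2.12 and 2.82 CPM in WT UUO libraries, against 0.265, 0.224 and 0.662 CPM in WT normal libraries (log2 change 2.67 ± 0.38 (SE), adjusted p = 3.20e-05). Each UUO library was above each normal library of its genotype, but Abcd2 was the least abundant of the 42 genes per length in both states of WT kidney. Its WT log2 change was 3.35 without WT normal library 3. The related transporters fell: Abcd3 changed by -1.34 in SMOC2 and -1.50 in WT kidneys, and Abcd4, known as a lysosomal cobalamin transporter, by -1.13 in SMOC2 and -1.07 in WT kidneys. Pxmp4 changed by -1.42 in SMOC2 and -1.48 in WT kidneys.

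No gene of the set was called between libraries labelled SMOC2 and WT in edgeR's test. After UUO, 0 of the 42 genes were called, against 0.831% of all genes (0.558% higher and 0.273% lower in SMOC2), and 3 (7.14%) had an unadjusted p under 0.05, against 15.2% of all genes. Log2 differences ran from -0.42 (Hao2) to 0.55 (Acaa1b), and 41 of 42 intervals lay within 2-fold either way. Pex5 came closest, with 55.2, 55.2, 60.7 and 59.7 CPM in SMOC2 UUO libraries, against 49.5, 50.05, 45.6 and 47.2 CPM in WT UUO libraries (log2 change 0.26 ± 0.06 (SE), adjusted p = 0.0557). The groups did not overlap, which held for 1 of the 42 genes (2.38%), against 9.85% of all genes tested. DESeq2 and the filter of at least 50 counts in 3 libraries each called Pex5, with adjusted p of 0.00381 and 0.0476. Over all genes, DESeq2 called 757 here, against 149 in edgeR's test. By limma-voom 0 genes of the set were called. Without WT UUO libraries 1 and 3, a setting chosen after seeing the data, 1 gene was called, Hao2. The libraries left out held its lowest WT UUO levels, 166 and 178 CPM. Those kept had 415 and 418 CPM, against 200 to 234 CPM in SMOC2 UUO libraries. This call thus depends on which libraries were left out and is not read as a genotype difference.

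In untreated kidneys 0 of the 42 genes were called between SMOC2 and WT, against 0.0279% of all genes (0.0223% higher and 0.00558% lower in SMOC2), and 8 (19.0%) had an unadjusted p under 0.05, against 12.8% of all genes. Of these 8, Pex5, Pex14, Pex6, Pex26, Phyh, Abcd2 and Pxmp2 had higher and Ech1 lower fitted levels in SMOC2 libraries. Pxmp2 had 61.5, 64.9 and 78.6 CPM in SMOC2 normal libraries, against 43.7, 44.9 and 41.2 CPM in WT normal libraries (log2 change 0.66 ± 0.20 (SE), adjusted p = 0.271). Those libraries did not overlap, and neither did those of 12 other genes of the set, which makes 13 of 42 (31.0%), against 16.8% of all genes tested. Log2 differences ran from -0.36 (Ech1) to 0.96 (Abcd2), and 38 of 42 intervals lay within 2-fold. Without WT normal library 3 the Abcd2 difference was 1.64. DESeq2 and limma-voom each called 0 genes of the set here.

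The response to UUO was also compared between genotypes. The interaction was called for 0 of the 42 genes, against 0% of all genes, with an unadjusted p under 0.05 for 6.44% of all genes and for 1 gene of the set, Phyh (log2 difference -0.41, adjusted p = 0.770, edgeR). Log2 differences of the SMOC2 response from the WT response ran from -1.09 (Abcd2) to 0.73 (Ehhadh), and 35 of 42 intervals lay within 2-fold. The interval for Ehhadh was -0.05 to 1.51. DESeq2 and limma-voom called 0 genes of the set for the interaction. All 42 changes had the same sign in both genotypes, and 36 of the 41 falls differed by under 0.3 on the log2 scale. Small differences were not particular to the set, since their median absolute size over all 17926 genes tested was 0.18.

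Peroxisome genes outside the set were read from a list of 38, of which 34 passed the count filter. In SMOC2 kidneys 29 fell (18 with library totals in place of scaling factors) and 1 rose after UUO, and in WT kidneys 28 fell and 0 rose. Their median log2 change was -0.96 in SMOC2 and -0.80 in WT kidneys. Gstk1, a glutathione transferase, changed by -2.98 in SMOC2 and -2.21 in WT kidneys. Dhrs4, a carbonyl reductase, changed by -1.76 in SMOC2 and -1.70 in WT kidneys, and Tysnd1, the protease that processes matrix enzymes, by -1.43 in SMOC2 and -1.49 in WT kidneys. Trim37, named after its value was seen because it alone rose, changed by 0.24 in SMOC2 and 0.13 in WT kidneys; in WT kidneys it was not called (adjusted p = 0.0957, edgeR).

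Most of the listed nuclear receptors and cofactors known to control such genes were lower too. Of 13 regulators, 9 fell and 0 rose in SMOC2 kidneys, and 11 fell (7 with library totals) and 1 rose in WT kidneys. Ppara had 6.66, 14.2, 10.2 and 12.7 CPM in SMOC2 UUO libraries, against 67.1, 37.0 and 54.8 CPM in SMOC2 normal libraries (log2 change -2.28 ± 0.35 (SE), adjusted p = 6.38e-05). It had 9.84, 11.01, 6.97 and 18.9 CPM in WT UUO libraries, against 72.5, 31.0 and 61.2 CPM in WT normal libraries (log2 change -2.24 ± 0.35 (SE), adjusted p = 7.76e-05). Each UUO library was below each normal library of its genotype. The coactivator Ppargc1a changed by -1.08 in SMOC2 and -1.34 in WT kidneys. Hnf4a, a transcription factor of the proximal tubule, changed by -1.68 in SMOC2 and -1.98 in WT kidneys. Rxra, the partner of PPARA, changed by -0.70 in SMOC2 and -0.85 in WT kidneys, and the orphan receptor Esrra by -1.56 in SMOC2 and -1.35 in WT kidneys. Pparg, named after its value was seen because it alone rose, changed by 1.51 in WT kidneys (adjusted p = 0.00214, edgeR) and by 0.81 in SMOC2 kidneys, where it was not called.

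Known PPARA targets that lie outside the peroxisome were not uniform. Of 19 tested, 13 fell and 3 rose in SMOC2 kidneys, and 14 fell and 3 rose in WT kidneys. Acsl1, which activates fatty acids, changed by -2.56 in SMOC2 and -2.40 in WT kidneys. Among enzymes of mitochondrial fatty acid oxidation, the dehydrogenase Acadm changed by -3.52 in SMOC2 and -3.32 in WT kidneys. The trifunctional protein subunit Hadha changed by -1.23 in SMOC2 and -1.17 in WT kidneys, and the carnitine palmitoyltransferase Cpt2 by -1.52 in SMOC2 and -1.57 in WT kidneys. The 3 that rose, named after their values were seen, were the lipid droplet coat gene Plin2 (1.31 in SMOC2 and 1.22 in WT kidneys), the lipase inhibitor Angptl4 (2.27 in SMOC2 and 2.20 in WT kidneys) and the mitochondrial carrier Ucp2 (1.47 in SMOC2 and 1.36 in WT kidneys). Their UUO and normal libraries did not overlap in either genotype.

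**Figure D5:**
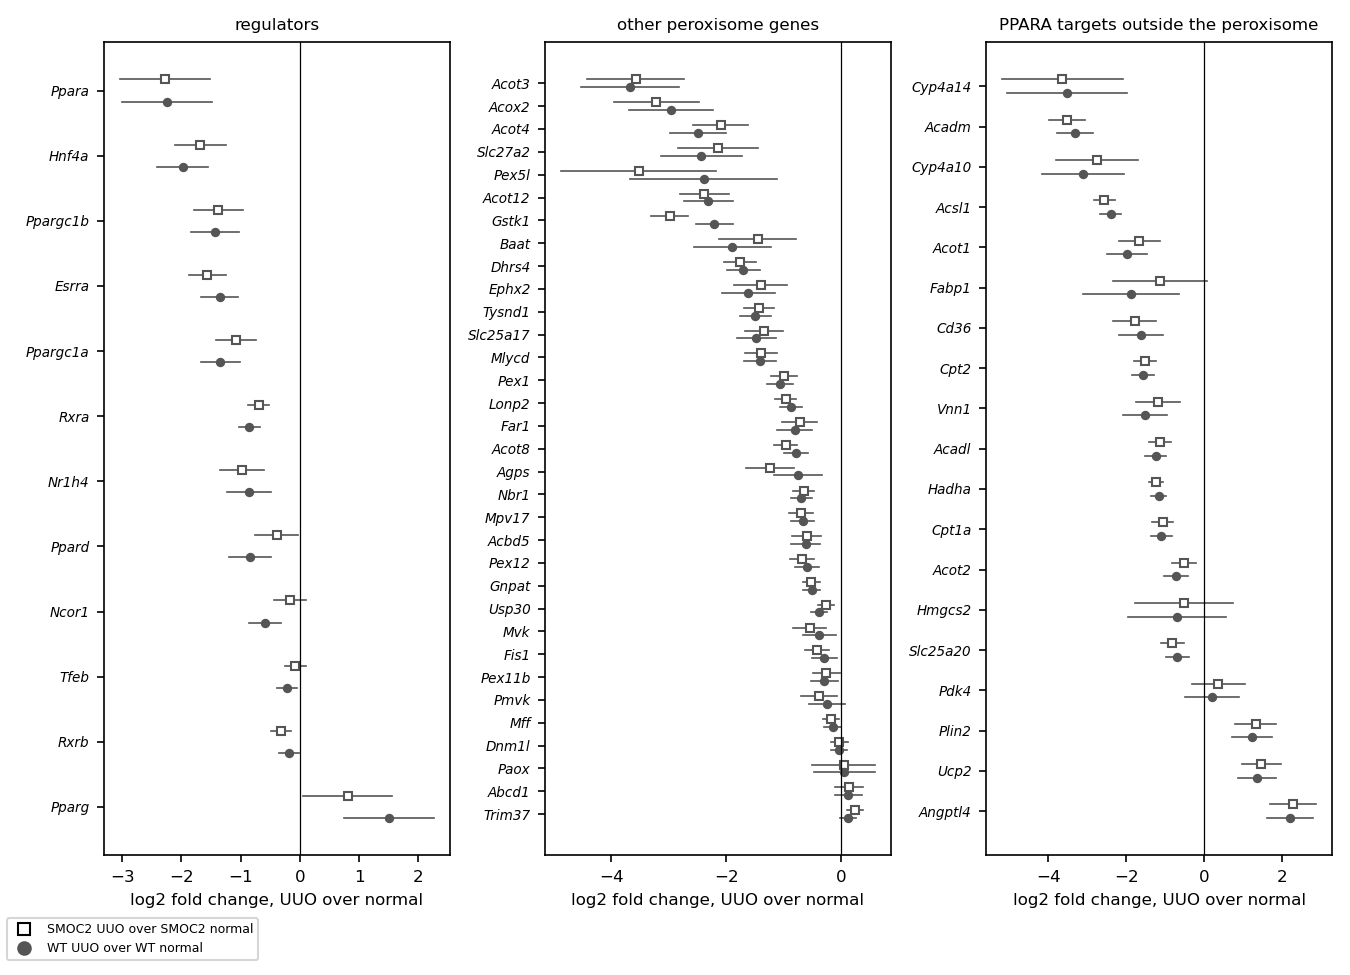
Fitted log2 change of UUO over normal kidney (horizontal axes) with 95% intervals for regulators, further peroxisome genes and PPARA targets outside the peroxisome, SMOC2 kidneys as open squares and WT kidneys as filled circles. Most points lie left of 0. Right of it in each genotype lie 4 PPARA targets (among them Plin2, Ucp2 and Angptl4), 1 regulator and 3 further peroxisome genes.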

How the data were processed

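RNA from frozen kidney tissue was made into libraries with a stranded mRNA kit, per the labels' protocols. Each deposited file lists whole-number counts for 1 library, made by the authors with STAR 2.4.1d and featureCounts 1.4.4 of the Subread package on build mm10, per the submitters' processing notes. The sources used here do not state the strand setting or the annotation. Symbols and coordinates came from GENCODE M21 (GRCm38), which matched 47310 of 47729 identifiers; the other 419 held 0.0288% of counts.

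Group means were fitted to all 14 libraries in R 4.3.3 with edgeR 4.0.16 (filterByExpr, trimmed mean of M-values factors, glmQLFit and glmQLFTest). There were 5 comparisons: UUO against normal in each genotype, SMOC2 against WT in each state, and the interaction. The Benjamini-Hochberg adjustment ran across 17926 genes. Intervals cover 95%. Precision is that of 19483994 to 30033405 counts per library. No 2 libraries held identical counts. The pipeline was tested on simulated data.

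The genes given library by library are the 4 peroxins, 8 matrix enzymes and 2 membrane proteins with the largest absolute log2 change in WT UUO against WT normal. From each further list the 4 genes with the smallest p there are named, plus Ppara and Ppargc1a, except genes that are not reported here. The members and lists were chosen with earlier results of these data known. As alternatives, scaling was changed to upper-quartile or median-ratio factors, the count filter was dropped or raised to 50 counts in 3 libraries, DESeq2 1.42.0 or limma-voom (limma 3.58.1) took the place of edgeR, replicate number entered as a block, fits were limited to the groups compared, each library was left out in turn, and 2 settings were added after seeing the data. Promoters are from RefSeq (GRCm38.p6). Protein targeting signals were not analysed here.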

Additional observations from a re-analysis of the deposited data

Results flagged for a closer look

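Dixon's test at 95% was applied to each of the 42 genes in both UUO groups of 4 libraries, 84 sets in all, and marked 2. Chance marks about 1 set in 20. Hacl1, the lyase of alpha-oxidation, stood at 74.3 CPM in WT UUO library 4, against 53.2 to 56.6 CPM in the other 3 libraries of that group. Idh1, the NADPH-supplying dehydrogenase, stood at 259.7 CPM in SMOC2 UUO library 1, against 391 to 414 CPM in the other 3. Without that library the Idh1 log2 change in SMOC2 kidneys was -0.52, against -0.65 with it.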

How the results depend on the processing

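Of the 17 counts of called genes, 133 of 135 values under the planned settings other than leaving out a library stayed within 1.5 times the reported count. The exceptions were 1 gene called between SMOC2 UUO and WT UUO, against 0 as reported, under DESeq2 and 1 under the filter of 50 counts, Pex5 in both. Leaving out each library in turn gave 41 to 42 genes called after UUO in each genotype. Over all genes, from 10180 of 18287 to 11458 of 18369 were called in SMOC2 kidneys. In WT kidneys the calls ran from 9879 of 18291 to 11073 of 18374. Within the set, 12 to 13 peroxins were lower in SMOC2 and 23 to 24 matrix enzymes in WT kidneys. Between genotypes 0 genes of the set were called. With the replicate number as a block, 42 genes were called after UUO in each genotype and 0 in the other comparisons. No other call on the set changed. Of all 17926 genes, the block called 11043 after UUO in SMOC2 and 10749 in WT kidneys. Deviations of same-numbered libraries correlated at -0.0996 to 0.132 over 18 pairs, with 1 above 0.1. Those of differently numbered libraries correlated at -0.1046 to 0.1135 over 55 pairs, also with 1 above 0.1. So few libraries cannot show whether an equal number marks a shared animal or batch.

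Library totals without scaling factors, chosen after seeing the data, shifted the median log2 change of all genes to 0.54 in SMOC2 and 0.52 in WT kidneys. Relative to that shift no gene of the set but Abcd2 was higher. Counts fell to 8 peroxins lower in WT kidneys (13 reported), 7 regulators lower in WT (11) and 18 other peroxisome genes lower in SMOC2 (29). Signs turned for Pex2 (0.30 in SMOC2, 0.17 in WT), Pex26 (0.12 in SMOC2, 0.15 in WT) and Pex11g (0.022 in SMOC2). Without WT UUO libraries 1 and 3, also chosen after seeing the data, 1 gene (Hao2) was called between SMOC2 UUO and WT UUO. The libraries left out held the lowest Hao2 levels of the WT UUO group, so this call depends on that choice. Upper-quartile scaling shifted the median of all genes to 0.15 in SMOC2 and 0.16 in WT kidneys, and under it Pex26 in WT (-0.21, adjusted p = 0.0566, edgeR) and Pex11g in SMOC2 (-0.36, adjusted p = 0.0576) lost their calls, and Pex11g did so without SMOC2 normal library 3 (-0.31). The cause was not tested. Over all genes, the 149 calls between SMOC2 UUO and WT UUO became 757 under DESeq2, 232 under limma-voom, 69 under the block, 39 with only the groups compared, 90 without WT UUO libraries 1 and 3, and 29 to 158 leaving out each library. The 5 calls between SMOC2 normal and WT normal became 172 under DESeq2, 9 under limma-voom, 12 without a filter, 8 with only the groups compared or with library totals, 12 without WT UUO libraries 1 and 3, and 4 to 21 leaving out each library. The 0 interaction calls became 25 under DESeq2, 1 without a filter, 1 under the block, 2 without WT UUO libraries 1 and 3, and 0 to 2 leaving out each library. Groups of 3 and 4 libraries limit what can be seen between genotypes.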
